A study of Mus musculus with 6 samples.

Results

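Mitochondrial ribosomal proteins were taken as every gene whose symbol is Mrpl or Mrps followed by a number and at most 1 letter a, b or c, together with Dap3, Chchd1 and Ptcd3, which encode further proteins of the small subunit. The rule found 79 of 23441 genes in the count table, 47 named for the large and 32 for the small subunit, and all 79 passed the filter on low counts. The levels come from RNA-seq of mouse retinae at embryonic day 14.5. The CKO group holds 3 libraries of mice that carry 1 copy of a Cre::GFP transgene (+/tg) and 2 floxed alleles (flox/flox) of Ronin (gene symbol Thap11), which encodes a DNA-binding regulator of transcription with a THAP zinc finger. The control group holds 3 libraries of mice that are also Ronin flox/flox, with no Cre transgene named, on the same mixed background of C57/B6, SJL/B6, 129/Sv and FVB. The labels call the knockout specific to retinal progenitor cells. Whether the Cre acted in cells of other lineages in the dissected tissue, such as vessels, was not tested. Nothing in the labels ties a library to an animal, litter or pool of retinae. Each p-value therefore refers to the variation among these 6 libraries, part of which may be technical.

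The mitochondrial ribosome translates the few messages of the mitochondrial genome, which encode core subunits of the respiratory chain and of ATP synthase. Its RNAs are made inside the organelle, whereas every protein of its large and small subunit is encoded in the nucleus, made in the cytosol and imported. Many of these proteins have a bacterial counterpart, and the rest are found in mitochondrial ribosomes alone. The large subunit joins amino acids and the small subunit holds and decodes the message.

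Both members that fell carry, upstream of their annotated start, the letters ACTACA and, after any 2 further bases, TCCC, the conserved core of a promoter element that THAP11 and ZNF143 are known to bind in mammals. The upstream stretches of the 5 members with a match are shown because they set the members that fell beside members that hold the same letters and did not pass the test. They come from RefSeq (GRCm38.p6), run 5′ to 3′ along the gene's own strand, and are in lower case with each match in capitals. The first pair gives the 250 bases before the start of Mrpl24 (chr3:87919294-87919543, plus strand) and Mrpl34 (chr8:71464676-71464925, plus strand), which both fell. The other 3 give 60 bases around the match furthest upstream in Mrpl42 (chr10:95501959-95502018, minus strand), Mrpl50 (chr4:49521191-49521250, minus strand) and Mrps22 (chr9:98601693-98601752, minus strand), whose levels did not pass the test.
Mrpl24: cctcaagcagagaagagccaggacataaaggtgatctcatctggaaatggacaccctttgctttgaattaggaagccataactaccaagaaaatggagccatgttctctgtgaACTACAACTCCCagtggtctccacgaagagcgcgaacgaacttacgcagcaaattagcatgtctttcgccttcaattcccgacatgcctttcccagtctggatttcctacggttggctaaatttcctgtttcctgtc
Mrpl34: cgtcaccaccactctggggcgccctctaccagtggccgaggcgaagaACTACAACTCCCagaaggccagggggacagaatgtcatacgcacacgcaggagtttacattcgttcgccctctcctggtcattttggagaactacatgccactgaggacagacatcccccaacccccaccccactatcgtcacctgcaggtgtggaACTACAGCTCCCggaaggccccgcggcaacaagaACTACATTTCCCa
Mrpl42: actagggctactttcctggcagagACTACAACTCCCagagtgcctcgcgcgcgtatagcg
Mrpl50: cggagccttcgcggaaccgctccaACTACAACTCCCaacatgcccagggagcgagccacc
Mrps22: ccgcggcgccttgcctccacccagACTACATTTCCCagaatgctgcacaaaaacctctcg

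The libraries held 23721052 to 28504391 counted reads in the CKO and 24903912 to 26280045 in the controls. Thap11 stood at 11.2, 10.9 and 6.38 CPM (counts scaled to a common library size, with TMM factors) in the CKO, against 68.3, 82.0 and 71.6 CPM in the controls. Its log2 fold change, given here and below as CKO minus control with the SE, was -2.96 ± 0.24 (adjusted p = 0.00425 by the quasi-likelihood test of edgeR, Benjamini-Hochberg over all genes). Of 14609 genes tested, 103 were lower in the CKO (0.705%) and 28 were higher (0.192%) at an adjusted p under 0.05, the threshold used throughout. Markers of retinal ganglion cells summed to 4658 to 4883 CPM over 12 genes in the CKO and 4233 to 5418 CPM in the controls. Lens markers, by contrast, summed to 11551, 83.4 and 844 CPM over 22 genes in CKO replicates 1 to 3, against 23.6, 14.5 and 16.5 CPM in the controls. All 19 of them that could be tested had positive log2 fold changes, beside 6569 of the 14609 genes tested. In the edgeR test all 19 had an unadjusted p under 0.05, beside 6.58% of all genes, and 0 passed at the adjusted threshold. The control libraries differed among themselves more than the CKO libraries did: Pearson correlations of log2 CPM over the tested genes were 0.985 or more within the CKO and 0.954, 0.973 and 0.9805 within the control group, the last without replicate 2, the library farthest from the rest. Vessel markers summed to 258 to 282 CPM over 13 genes in the CKO and 299 to 358 CPM in the controls, and pigment epithelium markers to 36.5 to 42.5 CPM over 11 genes in the CKO and 41.5 to 84.4 CPM in the controls. Periocular mesenchyme markers, 11 genes, summed to 72.0, 65.1 and 87.2 CPM in the CKO and 84.1, 215 and 88.2 CPM in the controls. The 215 CPM were those of control replicate 2. Retinal progenitor markers summed to 8558 to 9157 CPM over 11 genes in the CKO and 8901 to 9512 CPM in the controls. The part of these cell types in the results was not tested.

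In the large subunit, 2 of 47 members fell in the CKO and 0 rose, where 0.705% and 0.192% of all tested genes did. At an unadjusted p under 0.05 the edgeR test held 3 of the 47, against 6.58% of all genes, and DESeq2's Wald test called 3 lower and 0 higher, where it called 1.43% of all genes lower and 0.801% higher. Over both directions edgeR called 0.897% of all genes. The 2 members were Mrpl24 and Mrpl34. Their proteins are counterparts of the bacterial ribosomal proteins L24, which acts early in the assembly of the large subunit in bacteria, and L34.

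Mrpl24 had 256, 268 and 151 reads in CKO replicates 1 to 3, against 1024, 1340 and 829 reads in control replicates 1 to 3. Scaled for depth, these were 8.86, 10.01 and 6.18 CPM in the CKO and 40.2, 58.5 and 31.6 CPM in the controls. Every CKO library lay below every control, and the lowest control stood far above the highest CKO library. Mrpl24 fell 5.19-fold (log2 fold change -2.38 ± 0.28, adjusted p = 0.0119, edgeR). Its adjusted p was 0.0690 without CKO replicate 1 and 0.0670 without CKO replicate 3, at log2 fold changes of -2.42 and -2.20. Without the control library that stood apart, replicate 2, Mrpl24 fell by 2.09 on the log2 scale (adjusted p = 0.0104).

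Mrpl34 had 443, 383 and 316 reads in CKO replicates 1 to 3, against 1399, 1000 and 885 reads in the controls. Its levels were 15.3, 14.3 and 12.9 CPM in the CKO and 54.9, 43.6 and 33.7 CPM in the controls. The groups did not overlap, and the spread was smaller in the CKO, with 14.2 ± 1.21 CPM, than in the controls, with 44.1 ± 10.6 CPM (SD, n = 3 each). Mrpl34 fell 3.11-fold (log2 fold change -1.63 ± 0.20, adjusted p = 0.0146, edgeR). The call was lost when any CKO library was left out, with an adjusted p of 0.0750, 0.0810 and 0.109 without CKO replicates 1, 2 and 3, while the log2 fold change stayed between -1.70 and -1.57. Beside these levels, the summed lens markers were 11551, 83.4 and 844 CPM in CKO replicates 1 to 3. In bulk tissue, fewer cells of a type and less RNA per cell cannot be told apart.

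**Figure D1:**
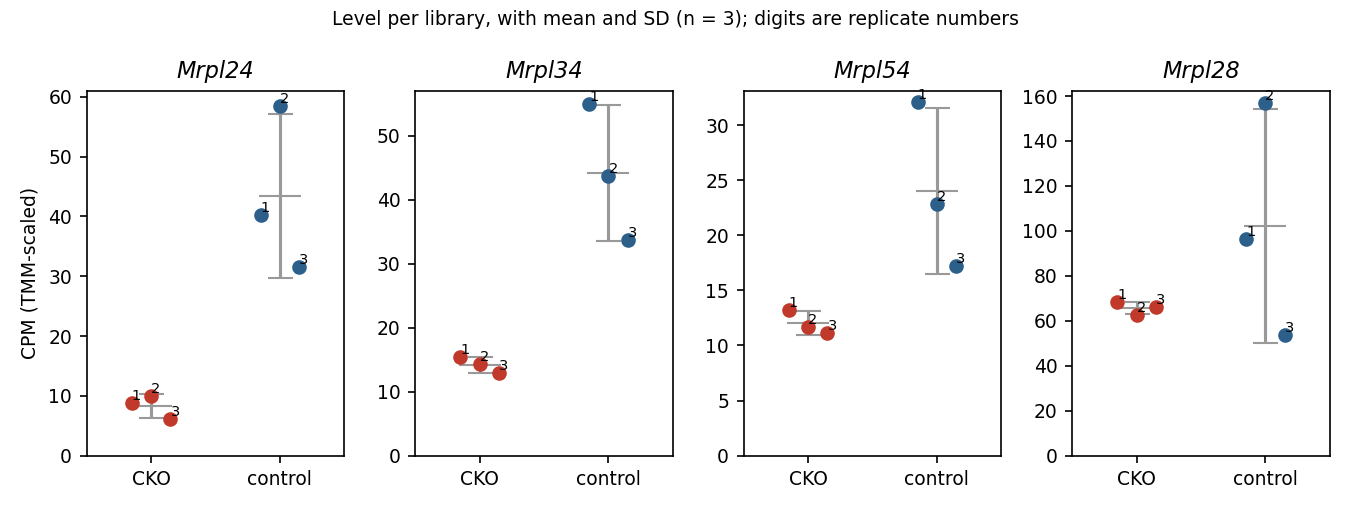
Level of 4 large subunit members in each library, in CPM, with CKO libraries in red left of controls in blue. Points carry the replicate number, and the grey bars are the mean and SD (n = 3 each). The groups are apart for Mrpl24, Mrpl34 and Mrpl54, whereas for Mrpl28 control replicate 3 (53.6 CPM) lies below all CKO libraries and control replicate 2 (157 CPM) far above them.

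The third largest difference in the large subunit was that of Mrpl54, a protein found in mitochondrial ribosomes and without a bacterial counterpart. Mrpl54 stood at 13.2, 11.6 and 11.2 CPM in the CKO, against 32.1, 22.8 and 17.2 CPM in the controls. These groups did not overlap, but the controls differed among themselves by nearly as much as the genotypes did. The log2 fold change was -0.999 ± 0.24 with an unadjusted p of 0.00332 and an adjusted p of 0.2002 in edgeR, so Mrpl54 did not pass. DESeq2's Wald test gave an adjusted p of 0.0114, and over all alternatives the adjusted p ranged from 0.0114 to 0.758.

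Mrpl28 and Mrpl12 came next, with log2 fold changes of -0.64 ± 0.34 (adjusted p = 0.884) and -0.63 ± 0.37 (adjusted p = 0.910), neither of which passed. Mrpl12, which forms the stalk that recruits translation factors, stood at 33.5, 27.9 and 29.4 CPM in the CKO, against 38.8, 76.7 and 24.8 CPM in the controls. Its CKO libraries lay within the range of the controls, and control replicate 2 was the highest library by far. Mrpl28 had the same pattern, with 68.2, 62.6 and 66.3 CPM in the CKO and 96.4, 157 and 53.6 CPM in the controls. Without control replicate 2 the log2 fold changes were -0.18 for Mrpl28 and -0.058 for Mrpl12, the third lowest log2 fold change of the subunit was still that of Mrpl54 (-1.02), and the next was -0.26, in Mrpl13.

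At the upper end of the large subunit, Mrpl42, Mrpl22, a protein at the exit tunnel for the new chain, and Mrpl39 had the 3 highest log2 fold changes, at 0.52 ± 0.41, 0.37 ± 0.35 and 0.22 ± 0.23, and none passed (edgeR adjusted p = 0.940 in each). Mrpl42 stood at 23.96, 23.7 and 26.7 CPM in the CKO, against 27.8, 7.20 and 16.8 CPM in the controls, so that the CKO libraries again lay between the lowest and the highest control. Here control replicate 2 was the lowest library. The values of Mrpl42, Mrpl22 and Mrpl39 were 0.17, 0.089 and 0.012 without control replicate 2, and 1.04, 0.82 and 0.44 without control replicate 1. By mean CPM over all 6 libraries the most abundant of the subunit were Mrpl28 and, at nearly equal levels in the 2 groups, Mrpl50 (83.2 ± 4.15 CPM in the CKO and 78.8 ± 32.6 CPM in the controls) and Mrpl3, the counterpart of bacterial L3 (79.8 ± 6.61 CPM in the CKO and 83.0 ± 20.7 CPM in the controls; SD, n = 3 each). Over the 47 members the median log2 fold change was -0.04, beside -0.03 over all tested genes, and 39 of the 47 were within 0.5 of 0 on that scale, beside 88.8% of all genes.

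**Figure D2:**
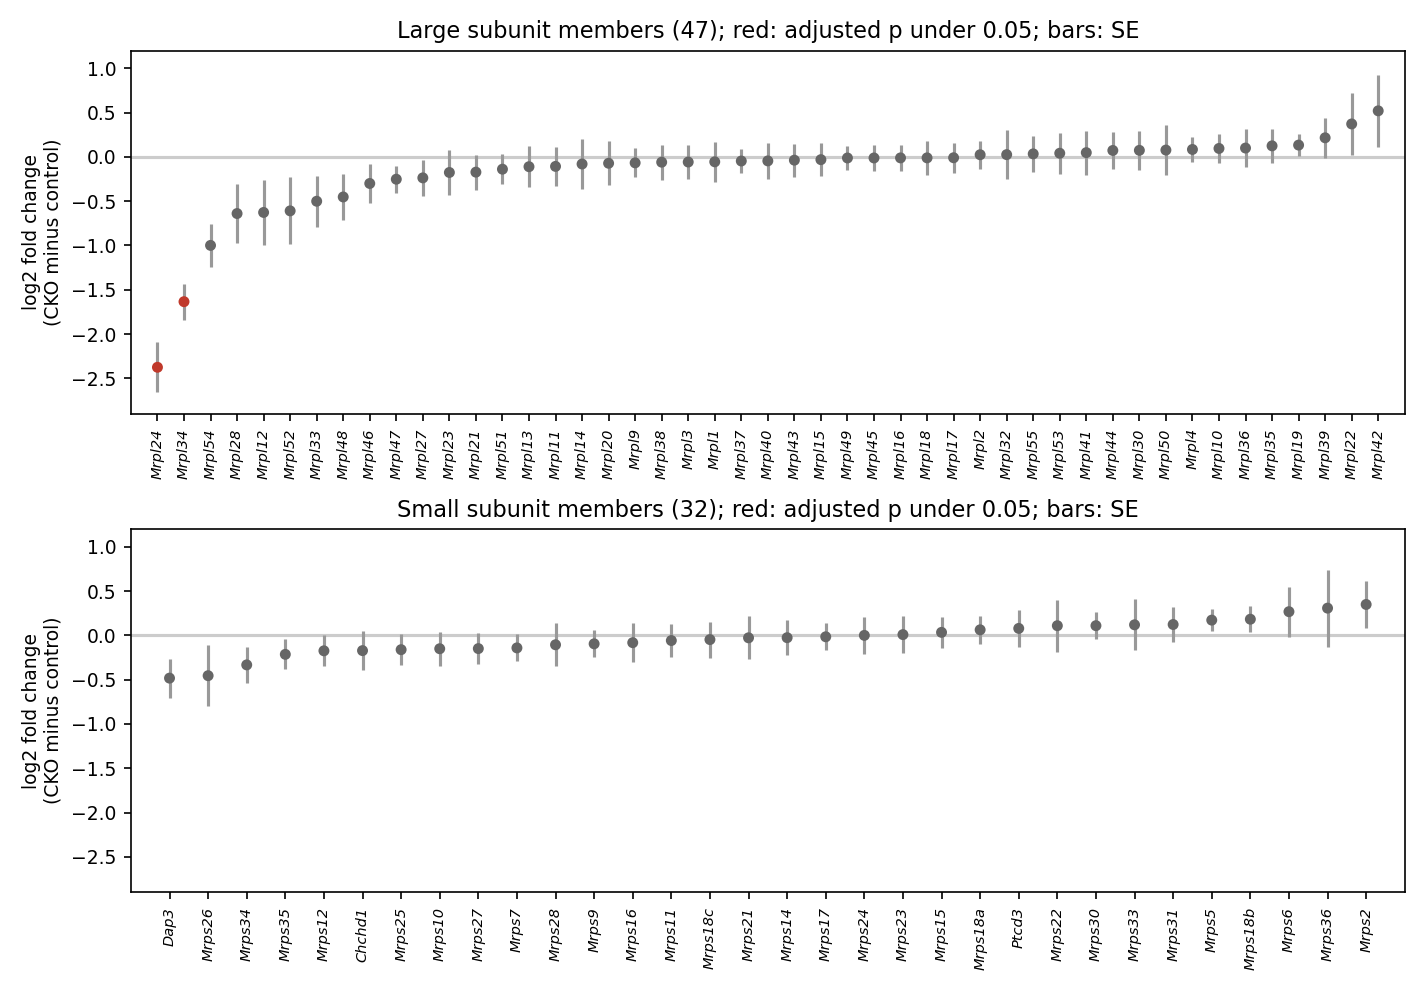
Log2 fold change of each member, CKO minus control, with its SE, for the large subunit above and the small subunit below, ordered from lowest to highest. Mrpl24 (-2.38) and Mrpl34 (-1.63), in red, passed the test over all genes, and small subunit members lie between -0.48 and 0.35.

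In the small subunit, 0 of 32 members rose or fell by edgeR, DESeq2's Wald test or limma-voom, and 0 had an unadjusted p under 0.05 in the edgeR test. Over all tested genes, edgeR called 0.897%, DESeq2's Wald test 1.43% lower and 0.801% higher, and limma-voom 120 of 14609 genes. An unadjusted p under 0.05 in the edgeR test was held by 6.58% of all genes. At such shares, 0 calls among 32 genes do not set the small subunit apart. The median log2 fold change of the 32 members was -0.03, the same to 2 decimals as over all tested genes, and all 32 lay within 0.5 of 0. The lowest was that of Dap3, a GTP-binding protein of the subunit, at -0.48 ± 0.22 (edgeR adjusted p = 0.803). Dap3 stood at 73.5, 80.9 and 77.2 CPM in the CKO, against 87.6, 149 and 87.3 CPM in the controls. The CKO libraries were below the controls, but the gap to control replicates 1 and 3 was small, and the log2 fold change was -0.17 without control replicate 2 and -0.61 without control replicate 1. Next came Mrps26 at -0.45 ± 0.34, Mrps34 at -0.33 ± 0.21, Mrps35 at -0.21 ± 0.17 and Mrps12, whose bacterial counterpart S12 lies at the decoding centre, at -0.17 ± 0.18, with adjusted p values from 0.916 to 0.940. The value for Mrps26 turned to 0.10 without control replicate 2.

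The highest log2 fold changes of the small subunit were those of Mrps2 at 0.35 ± 0.26, Mrps36 at 0.31 ± 0.43 and Mrps6 at 0.27 ± 0.28, with adjusted p values of 0.940, 0.953 and 0.941. Mrps36 has since been described as a component of the oxoglutarate dehydrogenase complex (Kgd4), and it had the lowest mean CPM over all 6 libraries, at 3.72 ± 0.50 in the CKO and 2.99 ± 1.75 in the controls (SD, n = 3 each). Without control replicate 2 the values were 0.094 for Mrps2, -0.054 for Mrps36 and 0.045 for Mrps6, and without control replicate 1 they were 0.50, 0.78 and 0.65. Ptcd3, a pentatricopeptide repeat protein with the highest mean CPM over all 6 libraries, stood at 103, 103 and 96.8 CPM in the CKO, against 119, 67.1 and 101 CPM in the controls, which overlapped. Mrps9 stood at 46.4 ± 1.11 CPM in the CKO and 49.6 ± 7.55 CPM in the controls. Chchd1, a small protein with a CHCH domain, stood at 29.9 ± 1.29 CPM in the CKO and 33.7 ± 9.35 CPM in the controls (log2 fold change -0.17 ± 0.22, adjusted p = 0.947).

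Counts of members with no overlap between groups were near those of all genes. In the large subunit 4 of 47 had every CKO library below every control (Mrpl24, Mrpl34, Mrpl54 and Mrpl47), and in the small subunit 1 of 32 had (Dap3), where 6.91% of all tested genes had. Every CKO library was above every control in 1 of 47 (Mrpl19) and 2 of 32 (Mrps2 and Mrps5), where 5.74% of all genes were. Mrps5 shows how small such a gap can be, with 28.1, 28.2 and 28.995 CPM in the CKO and 25.9, 25.04 and 24.7 CPM in the controls (log2 fold change 0.17 ± 0.13, adjusted p = 0.935). Structures of the mammalian ribosome place the proteins of Mrps30 and Mrps18a in the large subunit, and with them there the medians were -0.04 for both subunits, with the calls as before.

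Members with a bacterial counterpart and those particular to mitochondria were set side by side within each subunit, placed by structure. Over all tested genes 0.705% fell. Among large subunit proteins with a counterpart, 2 of 31 fell and the median log2 fold change was -0.05; among those without, 0 of 18 fell, with a median of -0.02. In the small subunit 0 of 16 fell among those with a counterpart (median -0.04) and 0 of 13 among those without (median -0.15). Mrps36 was assigned to neither class. Mrps18a was counted among those with a counterpart and Mrps18b among those without. The differences between these classes were not tested.

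The family as a whole differed more among the control libraries than between the genotypes. Summed over the 79 members, the level was 2585, 2456 and 2519 CPM in CKO replicates 1 to 3, against 3165, 2733 and 2263 CPM in control replicates 1 to 3. All 3 CKO sums lay between those of control replicates 2 and 3. In 66 of the 79 genes (83.5%) every CKO library lay between the lowest and the highest control, beside 52.6% of all tested genes. The highest library was a control in 74 of the 79 genes (93.7%) and the lowest in 71 (89.9%), beside 75.7% and 74.0% of all genes. The highest of the 6 libraries was control replicate 1 in 55 genes and control replicate 2 in 19, and the lowest was control replicate 3 in 42 and control replicate 2 in 28. The median SD of a member's log2 CPM was 0.072 among the CKO libraries and 0.371 among the controls, beside 0.098 and 0.326 over all tested genes. Without control replicate 2 the control value over all genes was 0.194, while that of the members was 0.393. These values rest on control replicates 1 and 3 alone, between which the members had a median log2 difference of 0.56.

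**Figure D3:**
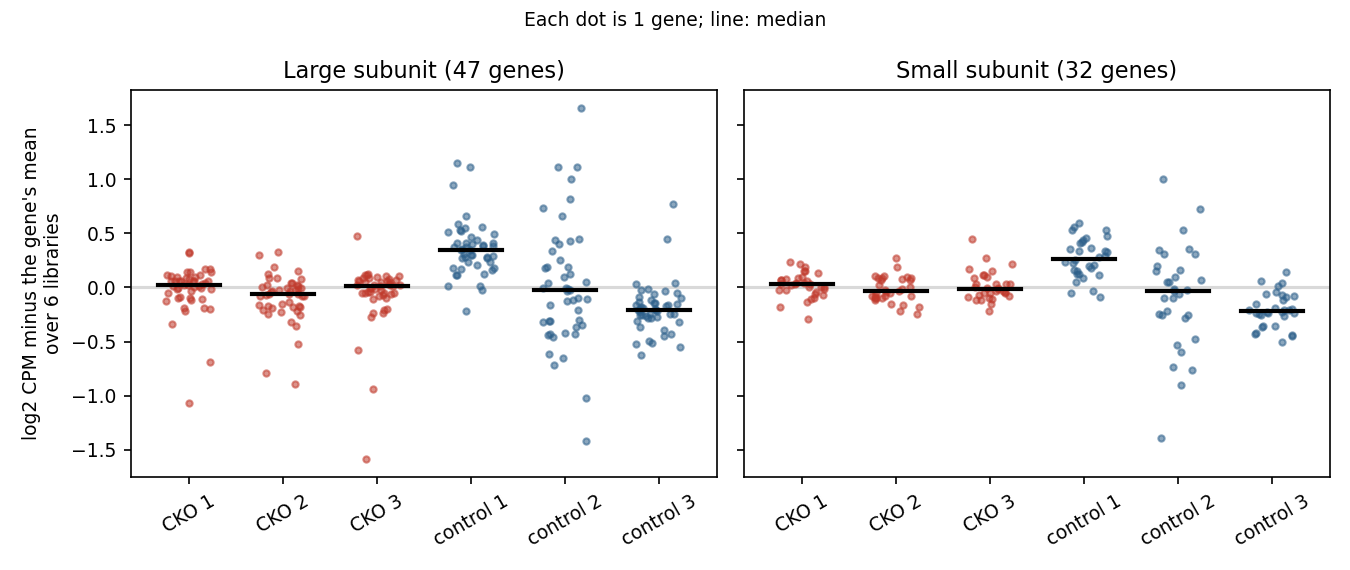
Log2 CPM of each member minus its own mean over the 6 libraries, by library, with CKO libraries in red on the left and controls in blue on the right. Each dot is 1 gene and the line is the median. Nearly the whole family sits high in control replicate 1 and low in control replicate 3 in both subunits, control replicate 2 is widely spread, and the 3 lowest dots in the CKO columns of the large subunit are Mrpl24, Mrpl34 and Mrpl54.

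The large and small subunit moved together in this. Relative to each gene's mean, the median log2 level of the large subunit was 0.35, -0.03 and -0.21 in control replicates 1, 2 and 3, and that of the small subunit was 0.27, -0.03 and -0.21. In the CKO the medians of both subunits lay between -0.06 and 0.03. The median log2 fold change accordingly depended on the controls kept. Without control replicate 1 it was 0.16 for the large and 0.16 for the small subunit, and without control replicate 3 it was -0.11 and -0.13. Cytosolic ribosomal proteins had the same order of controls, with 8769, 7963 and 8915 CPM summed over 79 genes in the CKO and 13402, 12114 and 7742 CPM in the controls. By contrast, 18 genes listed for mitochondrial translation factors summed close together, at 615, 666 and 660 CPM in the CKO and 590, 638 and 623 CPM in the controls. That list also holds Lrpprc and Slirp, and Lrpprc alone stood at 119, 169 and 131 CPM in control replicates 1 to 3.

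Transcript length and base composition moved with these differences between controls. Over the 79 members, the log2 difference between control replicates 1 and 3 had a Pearson r of -0.51 with the log of the transcript length and of 0.12 with its GC content. The difference between control replicate 2 and the mean of the other two controls had an r of 0.38 with GC content and 0.03 with length. Over 13807 tested genes with a transcript in GENCODE M21, the same pairs gave -0.36 and -0.17 for the first difference, and 0.57 and -0.02 for the second. The points of each value share the same libraries, and the part of length and composition in the differences was not tested. Between genotypes, the difference of the members had an r of 0.07 with length and -0.26 with GC content, beside -0.09 and -0.11 over all tested genes.

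Levels between genes can be compared per length of transcript, as far as the length used is that of the transcript expressed, which was not determined. By CPM per kb of the longest coding transcript in GENCODE M21, the median over large subunit members was 20.9 in the CKO and 23.0 in the controls, and over small subunit members 18.2 in the CKO and 19.45 in the controls. The range was wide within each subunit, with a ratio of highest to lowest of 54.2 in the CKO and 60.4 in the controls for the large subunit and of 10.7 in the CKO and 12.8 in the controls for the small. Mrpl52 was the highest and Mrpl48 the lowest of the large subunit in both groups, at 84.3 and 1.55 CPM per kb in the CKO and 129 and 2.129 CPM per kb in the controls. Chchd1 was the highest of the small subunit, at 48.6 CPM per kb in the CKO and 54.7 in the controls.

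The order of members was largely kept between the groups, with a Spearman rho across genes of 0.89 over the 47 large subunit members and 0.96 over the 32 small subunit members. The members that fell changed place within it. Mrpl34 stood at rank 21 of 47 in the CKO and at rank 3 in the controls, with 23.4 ± 1.997 CPM per kb in the CKO and 72.6 ± 17.5 in the controls (SD, n = 3 each). Mrpl24 stood at rank 42 in the CKO and rank 16 in the controls, with 6.24 ± 1.47 CPM per kb in the CKO and 32.4 ± 10.25 in the controls. For Mrpl54 the ranks were 27 in the CKO and 7 in the controls. In the CKO, Mrpl24 was thus among the 6 lowest transcripts of the large subunit.

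**Figure D4:**
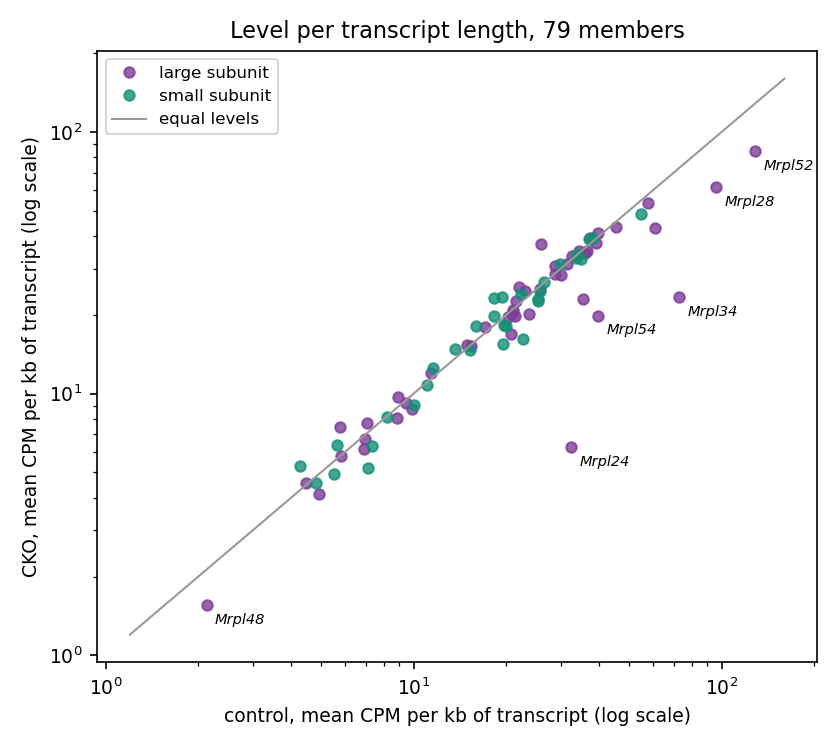
Mean level of each member per kb of transcript in the CKO (vertical, log scale) against the controls (horizontal, log scale), with the large subunit in purple, the small subunit in green and a line of equal levels. Most members lie close to the line, and Mrpl24, Mrpl34 and Mrpl54 lie below it.

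A promoter window from 250 bases before to 50 after the annotated start was given for 69 of the 79 members. Mrpl54 is not among these 69, so its promoter was not searched. The motif of ACTACA, any 2 bases and TCCC, searched on both strands, was found in the windows of 5 of these 69: the 4 large subunit genes Mrpl24, Mrpl34, Mrpl42 and Mrpl50 of 41, and the small subunit gene Mrps22 of 28. It was found in 1.81% of all 32851 windows and in 4.42% of the 10704 tested genes with a window. Its first letters alone, ACTACA, are part of every match of the longer motif. They were found in 9 of the 69 members, in 11.8% of the tested genes with a window and in 10.3% of all windows. Among tested genes with a window, 63 of the 83 lower in the CKO held the longer motif (75.9%), as did 7 of the 19 higher (36.8%) and 403 of the 10602 not called (3.8%). These shares describe the windows and were not tested.

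In all 5 members the matches read in the direction of the gene. Counted from the start site, Mrpl34 held 3, starting at positions -203, -47 and -13, and Mrpl24 held 1 at -137. Mrpl50 held 2, at -143 and -82, Mrps22 held 1 at -49 and Mrpl42 held 1 at -45. The levels of these 3 did not pass the test. Mrpl50 stood at 86.5, 78.5 and 84.5 CPM in the CKO, against 113, 47.7 and 75.9 CPM in the controls (log2 fold change 0.08 ± 0.28, adjusted p = 0.979). Mrps22 stood at 30.6, 28.4 and 27.4 CPM in the CKO, against 38.7, 15.8 and 25.6 CPM in the controls (0.11 ± 0.29, adjusted p = 0.966). In both, as in Mrpl42, the CKO libraries lay within the range of the controls and control replicate 2 was the lowest. Over the 5 members with the motif the median log2 fold change was 0.08, and over the 64 without it -0.03. The 5 include both members that fell, Mrpl24 and Mrpl34, so their median does not describe those 2. Without control replicate 2 the log2 fold changes of the other 3 were -0.17 in Mrpl50, -0.14 in Mrps22 and 0.17 in Mrpl42.

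**Figure D5:**
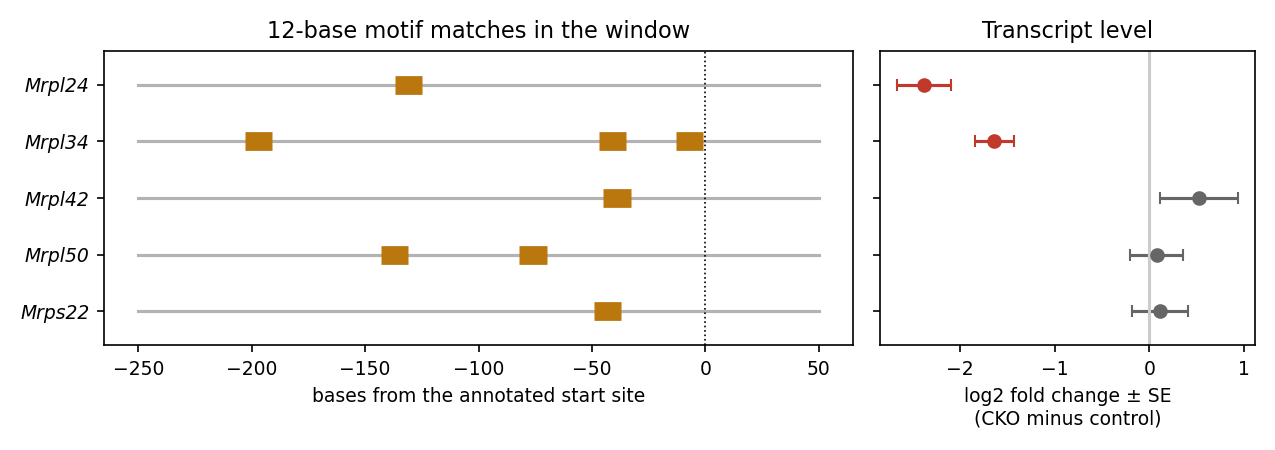
Position of matches to the promoter motif in the 300-base promoter windows of the 5 members that hold it, in bases from the annotated start site (dotted line), beside the log2 fold change of each gene with its SE. Mrpl24 and Mrpl34, in red, passed the test, and Mrpl42, Mrpl50 and Mrps22, in grey, did not.

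The genes next to the members that fell were followed as values. Hdgf, which encodes a growth factor and lies before Mrpl24, stood at 304, 285 and 272 CPM in the CKO, against 365, 521 and 322 CPM in the controls (log2 fold change -0.49 ± 0.19, adjusted p = 0.681). Rrnad1, on the other side, overlaps Mrpl24 in the annotation and stood at 16.5, 26.2 and 26.6 CPM in the CKO, against 13.0, 31.4 and 27.6 CPM in the controls (-0.05 ± 0.34, adjusted p = 0.990). Neither passed, and the levels of Rrnad1 overlapped between the groups. The neighbours of Mrpl34, Abhd8 and Dda1, were at 73.2 ± 6.03 and 98.1 ± 3.62 CPM in the CKO and at 76.7 ± 8.90 and 82.1 ± 14.3 CPM in the controls, with log2 fold changes of -0.07 and 0.26 and adjusted p values of 0.962 and 0.916. Every CKO library was above every control for Dda1, whose window holds the promoter motif, starting at -221. Reads of overlapping genes may be divided or dropped in counting, which touches Mrpl24 and, in the GRCm38 annotation, 27 of the 79 members in all.

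The genes most like each member over the 6 libraries were named by Pearson correlation of log2 CPM among all tested genes. For Mrpl24 these were Syt3 (r = 0.996), Dleu7 (0.995) and Rpia (0.994), and for Mrpl34 they were Galm, Kif5b and Mb21d2 (each 0.997). Rpia, an enzyme of the pentose phosphate pathway, stood at 9.49, 8.25 and 6.79 CPM in the CKO, against 34.3, 52.6 and 29.1 CPM in the controls, and fell by 2.24 on the log2 scale (SE 0.26, adjusted p = 0.0106). Galm, which encodes galactose mutarotase, stood at 1.83, 1.68 and 1.47 CPM in the CKO, against 9.97, 7.94 and 6.28 CPM in the controls, and fell by 2.27 (SE 0.24, adjusted p = 0.00791). Both had every CKO library well below the controls, as had the member each was chosen to resemble. That the CKO libraries lie below follows from the choice, but the size of the gap does not. The correlation reads the shape over libraries and not the size: Kif5b and Mb21d2 had log2 fold changes of -0.13 and -0.26 that did not pass. Rpia holds the promoter motif at 2 places in its window, and in the windows given for Syt3, Dleu7 and Mb21d2 it was not found. For Galm and Kif5b no window was given.

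Other genes of mitochondrial translation were read from lists. Over all tested genes, the edgeR test called 0.897%, and 6.58% had an unadjusted p under 0.05. Of 5 further genes that the symbol rule leaves out, 0 passed in the edgeR test and 0 had an unadjusted p under 0.05. The 5 were Mrp63, Ict1, Gadd45gip1 and Aurkaip1, which encode ribosomal proteins, and Oxa1l, an insertase that binds the ribosome. Over these 5 the median log2 fold change was -0.21. Gadd45gip1 stood at 18.7, 17.9 and 18.4 CPM in the CKO, against 22.5, 32.1 and 18.8 CPM in the controls (-0.42 ± 0.21, adjusted p = 0.870). Aurkaip1 overlapped between the groups, at 33.5 ± 1.44 CPM in the CKO and 40.5 ± 10.02 CPM in the controls. Of 27 genes for assembly and RNA modification of the ribosome 0 passed in the edgeR test, with 0 at an unadjusted p under 0.05 and a median of -0.03. The 2 with the lowest p were Nsun4, an RNA methyltransferase, at 19.1 ± 1.34 CPM in the CKO and 15.2 ± 1.62 CPM in the controls (adjusted p = 0.807), and Mrm1, another, at 27.4 ± 1.42 CPM in the CKO and 20.97 ± 7.74 CPM in the controls (adjusted p = 0.916), which was called higher once control replicate 2 was left out (adjusted p = 0.0283).

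Of 17 tested genes in the list of translation factors 0 passed in the edgeR test, beside 0.897% of all tested genes. Their median log2 fold change was 0.05. At an unadjusted p under 0.05 the test held 2 of the 17, beside 6.58% of all genes. The 2 were Mtrf1 and Pet112, a subunit of the enzyme that completes glutaminyl-tRNA. Mtrf1, which encodes a mitochondrial release factor, stood at 2.87, 2.09 and 0.859 CPM in the CKO, against 11.1, 5.80 and 8.49 CPM in the controls. All CKO libraries were below all controls, and the log2 fold change was -2.11 ± 0.43 (edgeR adjusted p = 0.106). DESeq2's Wald test called it (adjusted p = 8.9e-05), as did the fit with the replicate number as a block (adjusted p = 0.0159). Its window holds the promoter motif, starting at position -31 from the start site. Pet112 stood at 18.7, 19.3 and 17.8 CPM in the CKO, against 24.9, 35.6 and 20.4 CPM in the controls (-0.54 ± 0.22, adjusted p = 0.699), again with control replicate 2 the highest.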

How the data were processed

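The authors deposited raw read counts per gene symbol for 6 libraries of polyadenylated RNA, which held 23721052 to 28504391 reads. Build mm9 and the tools HTSeq 0.5.4p3, BWA 0.7.6a-r433 and DESeq 2.13 are listed, without their roles, per the submitters' processing notes; the gene annotation and strand handling were not given in the sources. In the table, 4 lines that hold no counts were skipped and 1 repeated row was dropped; 0 rows name no gene. Groups came from the sample titles. Genes were filtered with filterByExpr (minimum count 10), which left 14609, scaled by TMM and tested with edgeR 4.0.16 (glmQLFit, glmQLFTest, genotype only) in R 4.3.3, with Benjamini-Hochberg adjustment over all genes tested. The SE of a log2 fold change was its size over the root of F, and log2 CPM used a prior count of 2. The procedure was tested on simulated data. No molecular identifiers are described, so reads may include PCR copies.

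Members and lists were chosen with earlier results of these data known. Named genes were members past the test; in each subunit the 5 lowest and 3 highest log2 fold changes, the 3 most abundant by CPM and those with an unadjusted p under 0.05; Dap3, Chchd1 and Ptcd3; in each list the genes past the test or the 2 with the lowest p; neighbours of members past the test and the 3 genes most like each. Others, such as Mrpl47 and Mrps5, were named after their values were seen. Transcript lengths and GC are from GENCODE M21, promoter windows and gene order from RefSeq (GRCm38.p6), matched by symbol. Alternatives were DESeq2 size factors, library sizes alone, DESeq2 1.42.0's Wald test, limma-voom (limma 3.58.1), 2 other filters, a threshold of 0.01, a replicate block, leaving out each library, and moving 2 genes to the large subunit.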

Additional observations from a re-analysis of the deposited data

How the results depend on the processing

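The number of large subunit members lower in the CKO was 2 in the fit reported and 0 to 2 when each library was left out in turn; it was 0 at a threshold of 0.01, and 0 without CKO replicate 1 and control replicate 2 together, an alternative chosen after seeing the data, where Mrpl24 had an adjusted p of 0.0625 and Mrpl34 of 0.0918. Calls over all genes numbered 131 in the fit reported, 326 with DESeq2's Wald test, 39 at a threshold of 0.01, 50 without CKO replicate 1 and control replicate 2, and 16 to 219 when each library was left out in turn, the highest without control replicate 2 and the lowest without CKO replicate 3; the cause was not tested. The sign turned without control replicate 1 for Mrpl3 (0.17) and Mrps9 (0.00905), without control replicate 2 for Mrpl50 (-0.17), Mrps26 (0.10), Mrps36 (-0.054) and Ptcd3 (-0.11), with library sizes alone for Mrpl3 (0.00901), and without CKO replicate 1 and control replicate 2 for Mrpl39 (-0.001275), Mrpl50 (-0.1928), Mrps26 (0.0917) and Ptcd3 (-0.1163). With 1 library or that pair left out, the log2 fold change lay between -0.2218 and 0.1678 in Mrpl3, -0.001275 and 0.4362 in Mrpl39, -0.1928 and 0.4282 in Mrpl50, -0.1753 and 0.00905 in Mrps9, -0.6761 and 0.1021 in Mrps26, -0.05393 and 0.7785 in Mrps36 and -0.1163 and 0.2676 in Ptcd3; none of these 7 was called in any alternative. The medians of both subunits kept their negative sign except without control replicate 1 (0.16 in each), with library sizes alone (0.03 and 0.04) and, in the small subunit, with limma-voom (2.3e-05), all within the spread between libraries. Deviations from the group means correlated at 0.336, 0.107 and -0.00775 between CKO and control libraries of number 1, 2 and 3. Control replicate 1 correlated best with its own number, and control replicates 2 and 3 with another. With 3 libraries in a group these deviations depend on each other, so they cannot decide whether replicate numbers pair the libraries. With the replicate number as a block, 153 genes were called, Mrpl24 at an adjusted p of 0.000677, Mrpl34 at 0.00305 and Mtrf1 at 0.0159. Mrpl24, Mrpl34 and Mrpl54 had at least 151 reads in every library; the part of depth in the calls was not tested.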
